A study of Mus musculus with 8 samples.

Results

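The genes described here encode the subunits and dedicated assembly factors of mitochondrial complexes I to V. They are the named genes of the array whose symbol starts with Nduf, Sdh, Uqcr, Atp5, or Cox followed by a digit. The rule takes 79 of 8741 named genes, carried by 106 probes, and all 79 had a value in every mouse. Complex I had 31 of them, complex II 6, complex III 7, complex IV 20 and complex V 15. Of the 79 genes, 11 are assembly factors by their names and known roles, and the other 68 are subunits. Subunits encoded by mitochondrial DNA, and subunits whose symbols start otherwise, fall outside the rule.

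Lung RNA was measured on 2-colour arrays. The transgenic group held 4 male mice carrying a Fra-2 (Fosl2) transgene, aged 14 weeks and of C57BL6 x CBA background. Fra-2 is one of the AP-1 transcription factors, and the labels do not name the promoter that drives the transgene. The control was 1 pool, made from the lung RNA of 4 wild-type males with that background and age, and each transgenic mouse was set against it on 2 arrays with the dyes exchanged, 8 arrays in all. Mice of other ages are not analysed here.

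In the respiratory chain, complexes I and II take electrons from NADH and succinate and pass them to ubiquinone, complex III hands them to cytochrome c, and complex IV reduces oxygen. Complexes I, III and IV pump protons out of the matrix, and complex V, the ATP synthase, lets them return and makes ATP. A few core subunits in each complex carry the redox centres or the catalytic site, and many small accessory subunits surround them. Complex IV has tissue isoforms of some small subunits: Cox6a2, Cox7a1 and Cox8b are the forms of heart and skeletal muscle, and brown fat also uses Cox7a1 and Cox8b, while Cox6a1, Cox7a2 and Cox8a are expressed widely.

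Values are log2 ratios of transgenic over pool, so 0 means equal signal and -1 a level at 1/2 of the pool. That direction is no more than likely. It follows the order of the channels in the labels, with the transgenic sample listed first on each of the 8 arrays, and the division itself is not described there. If it ran the other way, every sign below would turn. The files hold ratios alone, so the level of a gene, its signal over background and the presence of lung markers as such are unknown, and no probe of Fosl2 is named to check the labels. Gene names rest on a shift of 11 between annotation number and row. At that shift the ratios of probes of 1 gene had a Spearman correlation of 0.224 over 4802 pairs, against 0.013 at no shift. In 2 ranges of annotation numbers the naming is weaker, with correlations of 0.073 over 395 and 0.13 over 432 pairs that touch them, against 0.245 over the 4003 other pairs, and 10 of the 79 genes have probes only there: Atp5b, Atp5d, Cox6b2, Cox6c, Cox8b, Ndufa8, Ndufa9, Ndufaf1, Ndufaf3 and Uqcrh. On 7 arrays the interquartile range of the ratios lay between 0.451 and 0.521, and on the array of mouse 4 with its RNA in Cy3 it was 0.906. The main counts and medians, and the genes whose call turns on this array, are given with and without it.

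Against the pool, 21 of the 79 genes were lower, 9 were higher and 49 did not pass the test (limma on 4 mice, Benjamini-Hochberg over 8692 genes, adjusted p under 0.05). That is 26.6% lower and 11.4% higher. Over all named genes, 18.4% were lower and 13.5% were higher. The median ratio was -0.10 for the 79 genes and -0.01 for all genes; without the wide array of mouse 4 it was -0.05 for the 79 genes and -0.01 for all genes, and without mouse 4 altogether -0.04 and -0.01. The changes were small: the lower genes were 1.21-fold to 1.56-fold below the pool and the higher genes 1.17-fold to 1.45-fold above it. In whole lung, fewer cells of a type and less RNA per cell cannot be told apart. Every one of the 21 lower genes was below 0 in all 4 mice, and 17 of them were below 0 on all 8 arrays. All 9 higher genes were above 0 in all 4 mice, and 7 of them on all 8 arrays. The calls were made on these same mice, so this agreement in sign is no separate support for them. Leaving out 1 mouse left 13 lower genes without mouse 2 or mouse 3, and 4 higher genes without mouse 1 or mouse 2. The shares over all genes fell too, to 11.5% and 13.9% lower without mouse 2 or 3, and to 6.94% and 8.37% higher without mouse 1 or 2. The genes whose call was lost in at least 1 of these fits were Atp5md, Cox6b2, Ndufa6, Ndufaf1, Ndufb9, Ndufv3, Sdha, Sdhaf2, Sdhaf4 and Uqcrc2 among the lower, and Cox6b1, Cox7c, Ndufa2, Ndufb7 and Sdhc among the higher. Of the 79 genes, 33 (41.8%) were below 0 in all 4 mice, against 28.6% of all named genes.

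**Figure D1:**
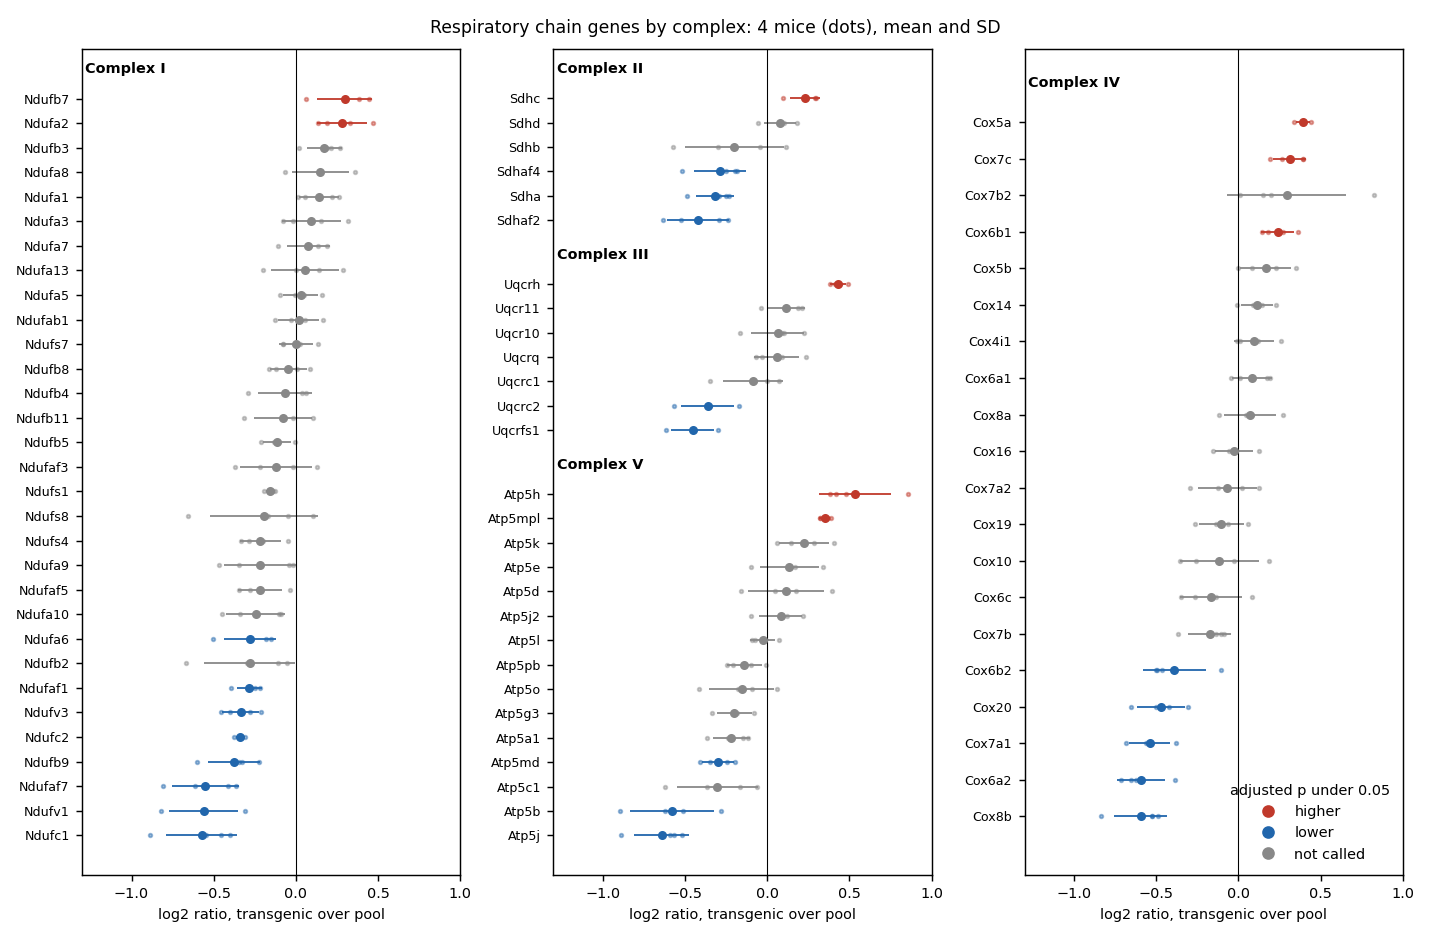
Log2 ratio of transgenic over pool for each of the 79 genes, by complex. Small dots are the 4 mice (mean of 2 arrays each), large dots and bars the mean and SD over mice, and colour shows the call at adjusted p under 0.05. Each complex holds both lower and higher genes; the lowest mean is Atp5j at -0.64 and the highest Atp5h at 0.53.

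Complex I, NADH dehydrogenase, had 8 lower and 2 higher genes of 31, with a median of -0.12. That is 25.8% and 6.45%, against 18.4% and 13.5% of all genes. Ndufv1, the flavoprotein subunit where NADH is oxidised, was at -0.31, -0.56, -0.56 and -0.82 in mice 1 to 4. All 8 arrays were below 0, and the mean was -0.56 ± 0.21 (SD, n = 4), or 67.8% of the pool (limma, adjusted p = 0.00601). The other core subunits measured did not pass the test: Ndufs1, with several of the iron-sulfur clusters, had a mean of -0.16 ± 0.03 and was below 0 in every mouse, Ndufs8 had -0.19 ± 0.33, and Ndufs7 had 0.00 ± 0.10.

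Ndufc1, a small accessory subunit of the membrane arm, was the lowest gene of complex I. Its mice were at -0.40, -0.55, -0.46 and -0.89, with a mean of -0.57 ± 0.22 (limma, adjusted p = 0.006). Its neighbour in the same arm, Ndufc2, was at -0.33, -0.34, -0.31 and -0.37, the narrowest spread of the lower genes, with a mean of -0.34 ± 0.03 (adjusted p = 0.0107). Both Ndufc2 probes were below 0, at -0.24 and -0.44. Ndufb9 (-0.38 ± 0.16), Ndufv3 (-0.34 ± 0.11), which sits beside the flavoprotein subunit, and Ndufa6 (-0.28 ± 0.16) were lower too, with adjusted p of 0.0158, 0.0159 and 0.0426 in limma.

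The 2 higher genes of complex I were the accessory subunits Ndufb7 and Ndufa2. Ndufb7 was at 0.45, 0.39, 0.29 and 0.06, with a mean of 0.30 ± 0.17 (limma, adjusted p = 0.037; 0.0592 with the mouse as a random block), and Ndufa2 at 0.47, 0.33, 0.19 and 0.13, with a mean of 0.28 ± 0.15 (adjusted p = 0.0393). Mouse 4 was the lowest for both. Ndufb7 had a mean of 0.55 on the Cy5 arrays of the transgenic RNA and 0.04 on its Cy3 arrays. The 23 accessory subunits of complex I therefore had no common direction: 5 were lower, 2 were higher and 16 did not pass, with a median of -0.07. Within them the 10 Ndufa genes had a median of 0.07 and the 8 Ndufb genes one of -0.07, and each series had 1 lower and 1 higher gene.

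Among the complex I assembly factors, Ndufaf7, a methyltransferase that modifies a core subunit early in assembly, was at -0.61, -0.37, -0.81 and -0.41. It was below 0 on all 8 arrays, with a mean of -0.55 ± 0.20 (limma, adjusted p = 0.00613). Ndufaf1, a factor of the intermediate that builds the membrane arm, had a mean of -0.28 ± 0.08 (adjusted p = 0.0229), and it was not called once the wide array was left out (adjusted p = 0.136). Ndufaf5 (-0.22 ± 0.13) and Ndufaf3 (-0.12 ± 0.22) did not pass; without that array Ndufaf5 was lower (-0.23, adjusted p = 0.0462).

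Complex II, succinate dehydrogenase, also works in the citrate cycle. It had 3 lower genes and 1 higher gene of 6 (50% and 16.7%, against 18.4% and 13.5% of all genes). Sdha, the flavoprotein that oxidises succinate, was at -0.24, -0.49, -0.25 and -0.29, below 0 on all 8 arrays, with a mean of -0.32 ± 0.12 (limma, adjusted p = 0.0206). Sdhaf2, which attaches the flavin to Sdha, had a mean of -0.42 ± 0.19 (adjusted p = 0.0131), and Sdhaf4, which helps the finished flavoprotein into the complex, -0.29 ± 0.16 (adjusted p = 0.0378). The lower genes of complex II were thus the catalytic subunit and both measured factors that act on it. The iron-sulfur subunit Sdhb spread from 0.11 in mouse 1 to -0.57 in mouse 4 and did not pass (-0.20 ± 0.30). The membrane anchors lay above 0: Sdhc was higher at 0.23 ± 0.09 (adjusted p = 0.0496), a call lost with the mouse as a random block (adjusted p = 0.0589), and Sdhd had 0.08 ± 0.10 and did not pass.

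Complex III, the cytochrome bc1 complex, had 2 lower genes and 1 higher gene of 7 (28.6% and 14.3%, against 18.4% and 13.5% of all genes). Uqcrfs1, the Rieske iron-sulfur protein that passes the electron on towards cytochrome c, was at -0.44, -0.30, -0.45 and -0.62. Its mean was -0.45 ± 0.13, or 73.0% of the pool (limma, adjusted p = 0.0068), with -0.46 on the Cy5 and -0.45 on the Cy3 arrays of the transgenic RNA. Uqcrc2, a core subunit on the matrix side, was lower at -0.36 ± 0.16 (adjusted p = 0.018). Its partner Uqcrc1 had -0.09 ± 0.18 and did not pass.

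Uqcrh, the hinge protein where cytochrome c docks, went the other way. It was at 0.38, 0.49, 0.41 and 0.44, above 0 on all 8 arrays, with a mean of 0.43 ± 0.05, or 135% of the pool (limma, adjusted p = 0.0051). Its single probe lies in a range of weaker naming. The other small subunits, Uqcr10, Uqcr11 and Uqcrq, had means of 0.06, 0.12 and 0.06 and did not pass. For Uqcrq the mean joined probes at 0.36, 0.29 and -0.48. The probe at -0.48 lies in a range of weaker naming, and with those ranges left unnamed Uqcrq was called higher.

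Complex IV, cytochrome c oxidase, had 5 lower and 3 higher genes of 20 (25% and 15%, against 18.4% and 13.5% of all genes). The roles described next were assigned with the ratios known. The 3 muscle isoforms were all lower. Cox8b was at -0.53, -0.49, -0.84 and -0.53 and below 0 on all 8 arrays, with a mean of -0.60 ± 0.16, or 66.2% of the pool (limma, adjusted p = 0.00361). Cox6a2 was at -0.66, -0.62, -0.71 and -0.38, with a mean of -0.59 ± 0.14 (adjusted p = 0.00323), and on the Cy5 arrays alone it did not pass (-0.35, adjusted p = 0.059). Cox7a1 was at -0.53, -0.38, -0.68 and -0.56, with a mean of -0.54 ± 0.12 (adjusted p = 0.00377), and its probes were at -0.46 and -0.62. In each mouse all 3 lay below 0, and mouse 3 was the lowest for each. Cox8b, unlike the other two, is named by a probe in a range of weaker naming.

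The promoters of Cox7a1 with its partner Cox7a2, and of Cox8b with Cox8a, are shown because the muscle isoform of each pair was called lower and its partner was not called. RefSeq (GRCm38.p6) gave promoters for 68 of the 79 genes. Cox6a2, the other muscle isoform called lower, is not among the 68, and its pair is not shown. Each sequence is the 250 bases upstream of the annotated start, on the gene's strand, with every CG in capitals. Cox7a1 is at chr7:30183921-30184170 on the plus strand and Cox8b at chr7:140900447-140900696 on the minus strand. Cox7a2 is at chr9:79759854-79760103 and Cox8a at chr19:7217617-7217866, both on the minus strand.
Cox7a1: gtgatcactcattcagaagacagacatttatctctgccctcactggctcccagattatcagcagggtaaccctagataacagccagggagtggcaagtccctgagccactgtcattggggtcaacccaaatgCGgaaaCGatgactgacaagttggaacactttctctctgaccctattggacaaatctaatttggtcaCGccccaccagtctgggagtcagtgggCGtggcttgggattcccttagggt
Cox8b: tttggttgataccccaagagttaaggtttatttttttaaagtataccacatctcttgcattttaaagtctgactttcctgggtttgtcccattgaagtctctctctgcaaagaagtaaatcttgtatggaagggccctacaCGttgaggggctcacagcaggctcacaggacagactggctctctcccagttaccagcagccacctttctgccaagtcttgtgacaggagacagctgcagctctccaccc
Cox7a2: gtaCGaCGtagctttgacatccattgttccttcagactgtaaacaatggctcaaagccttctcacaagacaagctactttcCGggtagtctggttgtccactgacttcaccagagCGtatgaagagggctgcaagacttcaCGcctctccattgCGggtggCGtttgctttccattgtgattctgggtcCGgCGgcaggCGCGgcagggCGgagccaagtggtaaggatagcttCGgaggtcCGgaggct
Cox8a: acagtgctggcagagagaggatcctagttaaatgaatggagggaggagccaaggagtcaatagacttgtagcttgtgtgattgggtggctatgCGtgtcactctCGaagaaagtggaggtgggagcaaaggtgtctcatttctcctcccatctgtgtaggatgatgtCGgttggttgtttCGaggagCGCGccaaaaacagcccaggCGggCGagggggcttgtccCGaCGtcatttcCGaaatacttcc
The Cox8b window holds 1 CG, the fewest of the 68 genes, and only 3.96% of named genes have as few. The Cox7a1 window holds 4, while those of Cox7a2 and Cox8a hold 14 and 11. The median was 14.5 over the 68 genes and 16 over 7038 named genes with a promoter. This is a description of the sequence, and it was not related to the ratios by a test. Ndufc2, a lower gene of complex I with no muscle form, also holds 4.

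Of the isoform pairs listed for comparison, 4 were measured, and in each the tissue isoform lay below its partner. The difference was -0.68 ± 0.23 for Cox6a2 minus Cox6a1, -0.47 ± 0.24 for Cox7a1 minus Cox7a2 and -0.66 ± 0.23 for Cox8b minus Cox8a. For Cox6b2, a testis isoform, minus the widely expressed Cox6b1 it was -0.63 ± 0.20. All 4 pairs were below 0 in 4 of 4 mice. The exact two-sided sign-flip permutation test gave p = 0.125 for each pair, which is the smallest p that 4 mice allow, and 0.125 after adjustment over the 4 pairs, so the design could not reach 0.05. Cox7b2 and Cox7b were not among the listed pairs; there the testis isoform lay above its partner in all 4 mice. The differences of the 4 pairs kept their sign with each dye orientation alone, lying between -0.78 and -0.40.

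**Figure D2:**
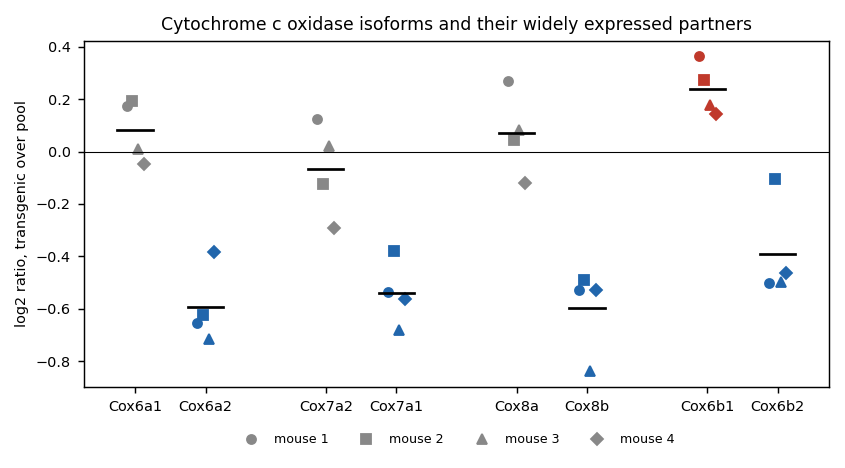
Log2 ratio of transgenic over pool of 4 cytochrome c oxidase isoforms and their widely expressed partners in each of 4 mice (symbols; the line is the mean). Blue genes were lower, red higher and grey not called at adjusted p under 0.05; Cox6a2, Cox7a1 and Cox8b sit at means of -0.59, -0.54 and -0.60, their partners at 0.08, -0.07 and 0.07.

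Most markers of heart and skeletal muscle were lower, as the muscle isoforms were, though by mouse the 2 sets did not rank alike. Of 21 measured muscle markers, 18 were lower and 0 higher (85.7% and 0%, against 18.4% and 13.5% of all genes). Their median was -0.54, with mouse medians of -0.52, -0.60, -0.65 and -0.31. Myoglobin (Mb), which stores oxygen in muscle, had -1.81 ± 0.60, phospholamban (Pln) -1.20 ± 0.10 and the slow myosin heavy chain Myh7 -1.16 ± 0.44 (limma, adjusted p of 0.00177, 0.000389 and 0.003). The medians of the 3 isoforms by mouse were -0.53, -0.49, -0.71 and -0.53. Of 14 fat markers, 8 were lower and 0 higher (57.1% and 0%), with a median of -0.44. Car3, Adipoq and Thrsp were at -2.25, -2.04 and -1.97. The brown fat genes Ucp1 (0.23 ± 0.20), Cidea (-0.07 ± 0.22) and Dio2 (-0.27 ± 0.24) were not called. With the transgenic RNA in Cy5 alone, Dio2 was lower (-0.44, limma, adjusted p = 0.0217) and Ucp1 higher (0.45, adjusted p = 0.03). Cidec and Fabp4 stand on this list and on that of alveolar macrophages. The arrays give no summed level of these markers in either group. Their part in the isoform result was not tested.

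The widely expressed subunits of complex IV had 3 higher and 0 lower genes of 10, with a median of 0.09. That is 30% and 0%, against 13.5% and 18.4% of all genes. Cox5a, a subunit on the matrix face that binds a thyroid hormone metabolite, was at 0.44, 0.39, 0.34 and 0.40. It was above 0 on all 8 arrays, with means of 0.40 in Cy5 and 0.39 in Cy3, and its mean over mice was 0.39 ± 0.04, or 131% of the pool (limma, adjusted p = 0.0068). Cox7c was at 0.40, 0.39, 0.19 and 0.27 (mean 0.31 ± 0.10, adjusted p = 0.019), and Cox6b1, which faces the intermembrane space, at 0.36, 0.27, 0.18 and 0.14 (mean 0.24 ± 0.10, adjusted p = 0.0469). Both were above 0 on all 8 arrays, and neither was called without mouse 1, without mouse 2 or on the Cy3 arrays alone. The other 7 widely expressed subunits did not pass, with means that ranged from Cox7b at -0.17 ± 0.13 to Cox5b at 0.16 ± 0.16. Cox4i1, the largest nuclear subunit, had a mean of 0.09 ± 0.12 that joined 4 probes at 0.64, 0.02, 0.01 and -0.29.

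Of the 2 testis isoforms, Cox6b2 was lower, with mice at -0.50, -0.11, -0.50 and -0.46 and a mean of -0.39 ± 0.19 (limma, adjusted p = 0.0176). Cox7b2 had 0.29 ± 0.36 and did not pass; mouse 4 stood at 0.82 and the others between 0.01 and 0.20. Among complex IV assembly factors Cox20, a chaperone of the mitochondrially encoded subunit that binds cytochrome c, was lower at -0.47 ± 0.14 (limma, adjusted p = 0.00661). Its arrays differed within mice. In Cy5 and Cy3 they were at -0.703 and 0.089 in mouse 1 and -0.262 and -1.042 in mouse 2. In mouse 3 they were at -0.013 and -0.994, and in mouse 4 at -0.335 and -0.514. Cox10, which makes the heme A precursor, Cox14, Cox16 and Cox19 had means between -0.12 and 0.11 and did not pass. Over complexes I, II and IV, 5 of the 11 assembly factors were lower (45.5%, against 18.4% of all genes) and 0 higher. Their median was -0.22, and 10 of 11 means were below 0, against 4523 of 8692 named genes. With the transgenic RNA in Cy5 alone, 2 were lower and 1 higher, and in Cy3 alone 4 were lower and 0 higher. The 31 assembly factors outside the rule had 6 lower and 3 higher genes (19.4% and 9.68%) and a median of -0.06.

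Complex V had 3 lower and 2 higher genes of 15 (20% and 13.3%, against 18.4% and 13.5% of all genes). Atp5j, subunit F6 of the peripheral stalk that holds the catalytic head still, had the lowest mean of all 79 genes. It was at -0.52, -0.59, -0.57 and -0.89, below 0 on all 8 arrays, with a mean of -0.64 ± 0.17, or 64.1% of the pool (limma, adjusted p = 0.003). Atp5b, the catalytic beta subunit, was at -0.28, -0.62, -0.51 and -0.89, with a mean of -0.58 ± 0.26 (adjusted p = 0.00809); its single probe lies in a range of weaker naming. Its partner in the head, the alpha subunit Atp5a1, was below 0 on all 8 arrays at -0.22 ± 0.11 and did not pass (adjusted p = 0.0676). Atp5md, a small membrane subunit tied to the pairing of synthases into dimers, was lower at -0.30 ± 0.10 (adjusted p = 0.0215).

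The central stalk did not pass in any of its 3 measured genes: Atp5c1 (gamma) had -0.30 ± 0.25, Atp5d (delta) 0.12 ± 0.23 and Atp5e (epsilon) 0.13 ± 0.18. The proton-carrying ring gene Atp5g3 had -0.20 ± 0.11 and the stalk subunits Atp5o and Atp5pb -0.16 ± 0.20 and -0.14 ± 0.11, none of them called. Atp5mpl, a small proteolipid of the membrane part, was higher at 0.37, 0.39, 0.32 and 0.32. Its mean was 0.35 ± 0.03 (limma, adjusted p = 0.0097), and its 3 probes were at 0.46, 0.32 and 0.28.

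Atp5h, subunit d of the peripheral stalk, had the highest mean, 0.53 ± 0.22 (limma, adjusted p = 0.00784), but its probes did not share a direction. They were at 1.86 ± 0.40, 0.09 ± 0.30 and -0.35 ± 0.04, and with the median over probes the gene was not called. In all, 20 genes had 2 or more measured probes. In 12 of them the probe means had 1 sign, in 8 they had opposite signs, and in 3 (Atp5h, Cox4i1 and Uqcrq) they lay more than 0.5 apart.

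**Figure D3:**
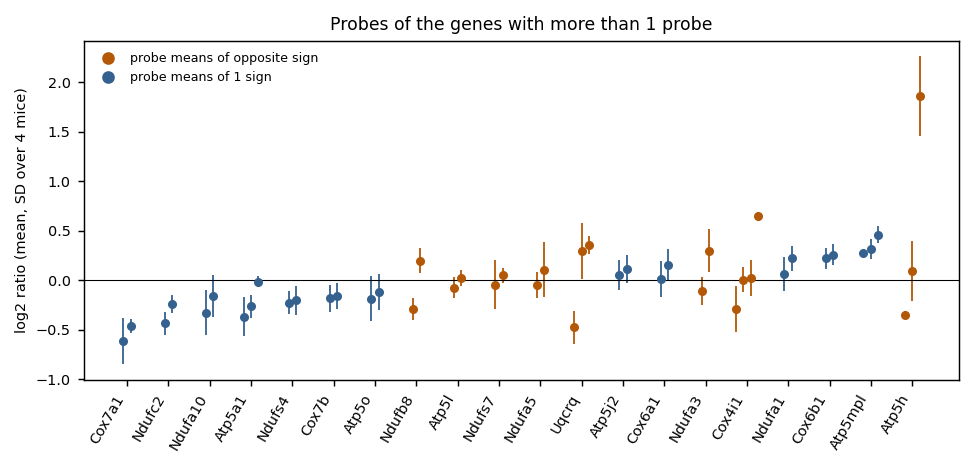
Log2 ratio of each probe (mean and SD over 4 mice) of the 20 genes with 2 or more measured probes, ordered by gene mean. Orange genes have probe means of opposite sign, 8 of the 20; the probes of Atp5h run from -0.35 to 1.86, while those of Atp5mpl lie between 0.28 and 0.46.

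Grouped by role across complexes, 14 genes were core and catalytic subunits (core subunits of complexes I to III, and the head and central stalk of complex V). They had 5 lower and 0 higher genes (35.7% and 0%) and a median of -0.21. The 9 core subunits of complexes I to III had means at or below 0 in every case, with 4 lower (44.4%): Ndufv1, Uqcrfs1, Uqcrc2 and Sdha. Uqcrc1 and Uqcrc2 are counted here as core by name, though they carry no redox centre. The 42 accessory subunits had 6 lower and 7 higher genes (14.3% and 16.7%) and a median of 0.06. Without assembly factors and tissue isoforms, 12 of 63 subunits were lower (19.0%) and 9 higher (14.3%), with a median of -0.05, set against 18.4% and 13.5% of all genes. The roles were assigned with the ratios of this study known, so these counts describe the genes and support no separate claim.

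**Figure D4:**
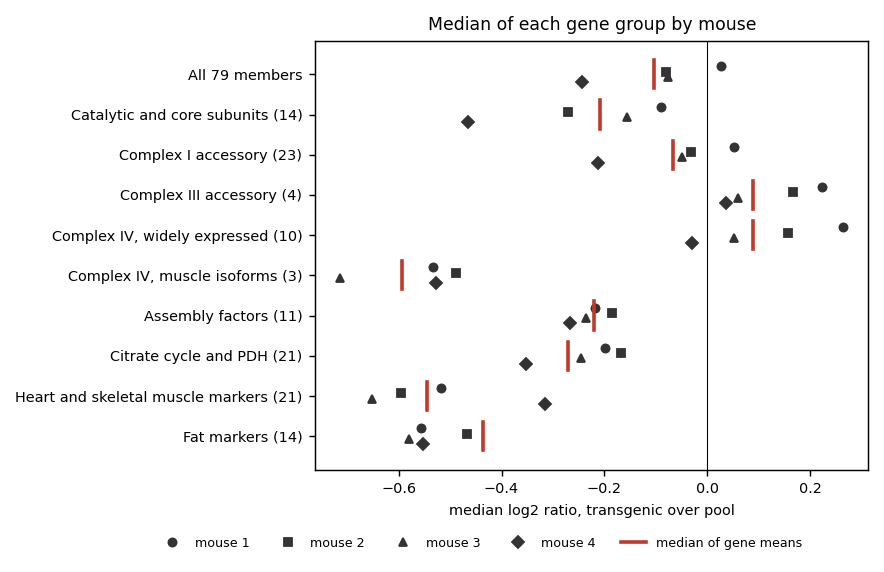
Median log2 ratio of each gene group in each of 4 mice (symbols) and the median of its gene means (red line); the number of genes is in brackets and PDH is pyruvate dehydrogenase. The muscle isoforms lie at -0.59 and the muscle markers at -0.54, while the widely expressed subunits of complex IV lie at 0.09.

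None of the 79 genes was called different between mice: 0 passed (limma F test over 8 arrays with the dye as a term, Benjamini-Hochberg), and 9 had an unadjusted p under 0.05. Over all genes 2.78% were called. The smallest adjusted p among the 79 was 0.126. Mouse 4 was nevertheless the lowest mouse for 56 of the 79 genes and mouse 1 the highest for 44. The median of the 79 genes was 0.03, -0.08, -0.08 and -0.24 in mice 1 to 4. Over all genes the medians were -0.01, -0.01, -0.01 and -0.06, so mouse 4 was the lowest there too. On the arrays of mouse 4 the median of all genes was -0.01 in Cy5 and -0.16 in Cy3. That of the 79 genes was -0.07 in Cy5 and -0.43 in Cy3, the array with widely spread ratios. Without that array, 21 genes were lower and 13 higher (18.2% and 15.5% of all genes). Ndufaf1 was then no longer called, Ndufaf5 was lower, and Atp5e, Atp5k, Ndufa8 and Ndufb3 were higher, with means of 0.27, 0.28, 0.24 and 0.21 (limma, adjusted p of 0.0366, 0.0344, 0.0378 and 0.0416). In that fit mouse 4 stands by its Cy5 array alone. These 4 added higher genes were also called on the Cy5 arrays alone, with means of 0.44, 0.32, 0.37 and 0.29. On the Cy3 arrays alone their means were -0.18, 0.13, -0.07 and 0.05. With mouse 4 left out altogether, 8 genes were higher and 0 were gained. The part of the dye in the 13 higher genes was not tested.

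Ratios of these genes were higher where Cy5 labelled the transgenic RNA. The Cy5 mean lay above the Cy3 mean for 68 of 79 genes, and for 5453 of 8645 genes over all. The median difference was 0.21, against 0.09 for all genes. No single gene passed the test of that difference: 0 of 79, and 0% of 8645 genes, were called by limma with Benjamini-Hochberg, while 32 of the 79 genes and 2311 of all genes had an unadjusted p under 0.05. On the 4 Cy5 arrays alone 19 genes were higher and 13 lower, with a median of 0.00, and on the 4 Cy3 arrays alone 4 were higher and 17 lower, with a median of -0.18. Over all genes the balance shifted the same way: 16.2% were higher and 16.1% lower in Cy5 alone, and 7.9% and 14.3% in Cy3 alone. The part of the dye in the median of -0.10 was not tested. Lower genes that lost their call were Atp5md, Cox20, Cox6a2, Ndufa6, Ndufaf1, Ndufc2, Ndufv3 and Sdhaf4 in Cy5 alone, and Cox6b2, Ndufb9, Sdha, Sdhaf4 and Uqcrc2 in Cy3 alone. Of the higher genes, Atp5mpl, Cox6b1, Cox7c, Ndufa2, Ndufb7 and Sdhc lost it in Cy3 alone. Genes called in both orientations include Atp5j (-0.48 and -0.80), Cox8b (-0.40 and -0.79), Cox7a1 (-0.40 and -0.68), Uqcrfs1, Cox5a and Uqcrh.

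**Figure D5:**
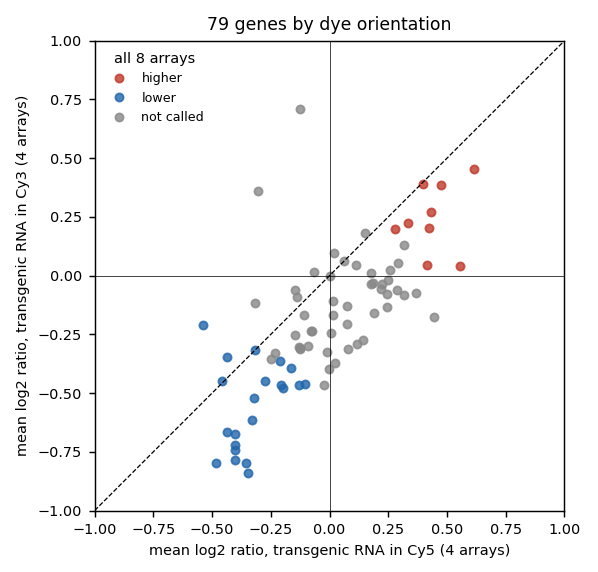
Mean log2 ratio of each of the 79 genes on the 4 arrays where Cy5 labelled the transgenic RNA (x axis) and on the 4 where Cy3 did (y axis). The dashed line marks equal values and colour the call on all 8 arrays; 68 genes lie below the line, and Cox5a and Uqcrfs1 lie near it.

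Pathways that feed or serve the chain were described from lists chosen with earlier results of these data known. Shares in brackets follow the order of the counts. Over all named genes, 18.4% were lower and 13.5% higher. The citrate cycle and pyruvate dehydrogenase list had 11 lower and 0 higher genes of 21 (52.4% and 0%). Its median was -0.27, with mouse medians of -0.20, -0.17, -0.25 and -0.35. Pdha1, the catalytic subunit of pyruvate dehydrogenase, was at -0.76, -1.04, -0.73 and -0.96 (mean -0.87 ± 0.15, limma, adjusted p = 0.00115). Sucla2, of the succinyl-CoA synthetase that makes ATP, and Idh3a, the catalytic subunit of the isocitrate dehydrogenase that yields NADH, were at -0.64 ± 0.11 and -0.57 ± 0.11. Both were below 0 in all 4 mice.

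Genes of electron entry to ubiquinone, ubiquinone synthesis and cytochrome c had 4 lower genes and 1 higher of 17 (23.5% and 5.88%). Etfdh, which passes electrons of fatty acid oxidation to ubiquinone, was at -0.78 ± 0.29, Sqor, which does so for sulfide, at -0.49 ± 0.11, and Coq8b, a factor of ubiquinone synthesis, at 0.56 ± 0.38 (limma, adjusted p of 0.004, 0.00461 and 0.0211). Assembly factors outside the rule had 6 lower and 3 higher genes of 31 (19.4% and 9.68%), with a median of -0.06. Surf1, an assembly factor of complex IV, was at -0.56 ± 0.27, and Lyrm7, which helps insert the Rieske protein into complex III, at 0.38 ± 0.28.

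Carriers and other inner and outer membrane genes had 6 lower genes and 1 higher of 19 (31.6% and 5.26%). Ckmt2, the mitochondrial creatine kinase of muscle, had the lowest mean among them, -1.40 ± 0.40, with mice at -1.57, -1.69, -1.52 and -0.81 (limma, adjusted p = 0.00138). Ckmt1, its widely expressed counterpart, was at 0.86 ± 0.35 (adjusted p = 0.00458). Slc25a5, an ADP/ATP carrier, was lower at -0.60 ± 0.35. Of 19 genes of mitochondrial biogenesis, 6 were lower and 3 higher (31.6% and 15.8%, against 18.4% and 13.5% of all genes). Tfam, which packages and transcribes mitochondrial DNA, was at -0.53 ± 0.16, and Gabpa, the DNA-binding subunit of GABP (NRF-2), at -0.64 ± 0.44. The 3 higher genes were Mterf1a at 0.52 ± 0.16, Ppard at 0.52 ± 0.26 and Ppargc1b at 0.43 ± 0.31.

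In glycolysis 3 genes were higher and 2 lower of 18 (16.7% and 11.1%, against 13.5% and 18.4% of all genes). Hk2, an inducible hexokinase, was at 0.88 ± 0.08, with all 4 mice between 0.83 and 0.99 (limma, adjusted p = 0.000802), and the muscle forms Eno3 and Pgam2 were at -0.55 ± 0.19 and -0.38 ± 0.08. Fatty acid beta oxidation had 1 lower (Acadvl) and 1 higher (Acads) gene of 15 (6.67% each). Mitochondrial protein import had 4 lower genes and 1 higher of 23 (17.4% and 4.35%). The antioxidant genes had 3 higher (Txn2, Gpx4 and Gpx1) and 1 lower (Glrx2) of 6 (50% and 16.7%).

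Markers of other lung cells moved as well. Their counts stand beside 18.4% lower and 13.5% higher over all named genes. Higher were 9 of 9 markers of recruited macrophages, with a median of 1.87. Lower were 5 of 6 type 1 alveolar epithelial (83.3%), 4 of 6 club cell (66.7%) and 4 of 9 fibroblast markers (44.4%). Alveolar macrophage markers had 4 lower and 2 higher genes of 6 (66.7% and 33.3%), and endothelial markers 2 lower and 1 higher of 8 (25% and 12.5%). Type 2 epithelial markers had 1 higher and 0 lower of 6 (16.7% and 0%), and ciliated cell markers 0 of 8 in either direction. The part of these markers in the ratios of the respiratory chain genes was not tested.

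Short motifs of factors known for respiratory genes, and of AP-1, were searched on both strands in the promoters of the 68 genes. The window was the same 250 bases. GCGCANGCG, bound by NRF1, was found in 11 of 68 (16.2%), against 11.6% of 7038 named genes and 5.86% of all 27025 promoters. CCGGAAG, an ETS site of the kind GABP binds, was found in 15 (22.1%), against 14.4% and 7.83%. AAGGTCA, bound by estrogen-related receptors, was found in 4 (5.88%), against 3.84% and 4.7%.

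TGAGTCA, the AP-1 site, was found in 5 promoters (7.35%), against 4.56% of named genes and 5.16% of all promoters. They belong to Atp5c1, Ndufa13, Ndufa5, Ndufa9 and Uqcrh, of which only Uqcrh was called. The Uqcrh promoter, chr4:116075071-116075320 on the minus strand in GRCm38.p6 (RefSeq), is shown with its match in capitals, read here as the reverse complement.
Uqcrh: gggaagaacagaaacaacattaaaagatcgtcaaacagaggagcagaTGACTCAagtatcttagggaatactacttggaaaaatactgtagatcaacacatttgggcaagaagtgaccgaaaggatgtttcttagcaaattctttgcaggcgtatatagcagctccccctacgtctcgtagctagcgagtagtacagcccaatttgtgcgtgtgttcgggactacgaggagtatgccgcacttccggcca
The match lies 203 bases before the start. It is a match of letters in this window, and no binding was measured in these data.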

How the data were processed

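Lung RNA of 4 transgenic mice was hybridised against 1 pool of wild-type RNA, on 8 arrays with a colour for each. Per the labels' protocols, Cy3 or Cy5 was attached indirectly after reverse transcription of total RNA. The deposited values are log2 ratios made by the authors, 1 per probe and array; for image software, background correction and normalization, nothing is given in the sources used here. That they are on a log2 scale was read from the values, and centring is unknown beyond array medians of -0.09 to 0.01. Depth has no meaning here; the number of arrays limits the precision.

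The 498 values beyond 10 in size were set to missing, 2 of them in probes of the genes described; 706 were missing as deposited. Names were taken from the platform annotation at a shift of 11, up to annotation number 20237: 12296 of 20794 probes have 1 gene, 0 have several and 8498 are unnamed here. Symbols follow RefSeq GRCm38.p6. Cross-hybridisation between near-identical genes could not be checked, as probe sequences were not used here.

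Probes were averaged per gene and the 2 arrays per mouse, so n = 4 mice. The test against 0 was two-sided and used lmFit and eBayes of limma 3.58.1 under R 4.3.3 (Benjamini-Hochberg over 8692 genes, 0.05); the pool is 1 sample, so its own spread is left out. Mice were compared with a limma F test on 8 arrays with the dye as covariate, and dyes by the within-mouse difference. Isoform pairs used an exact sign-flip test; of 8 pairs listed, 4 were measured. The test against the pool, the F test between mice and the dye test were run on simulated data. The planted changes were larger than those of the called genes here, so performance at their size was not tested. The random-block fit and the sign-flip test were not run on simulated data. Alternatives were each mouse left out, each dye alone, the mouse as a random block, median centring, placeholders kept, the weakly named ranges left unnamed, the median over probes, and each probe alone; leaving out the wide array of mouse 4 was chosen after seeing the data. Members and lists were chosen with earlier results of these data known. All members may be named; outside them, up to 3 genes in each direction per list were named by size, and Ucp1, Cidea and Dio2 after their values were seen. Motif searches and plots used Python 3.11.15.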

Additional observations from a re-analysis of the deposited data

Results flagged for a closer look

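In 4 of 84 groups of 4 mouse values checked (79 genes and 5 complex medians), 1 mouse stood far from the other 3; chance flags about 1 in 20 groups. Cox6b2, the testis isoform of complex IV, was at -0.105 in mouse 2, against -0.501, -0.496 and -0.464 in the others. Cox8b, the muscle isoform, was at -0.838 in mouse 3, against -0.528, -0.527 and -0.488. Cox7b, a widely expressed subunit of complex IV, was at -0.369 in mouse 4, against -0.136, -0.103 and -0.0905. The median of the 20 complex IV genes was -0.193 in mouse 4, against 0.0106, 0.044 and 0.0505. Mouse 4 has the array with widely spread ratios, and its part in the values of Cox7b and of the complex IV median was not tested.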

How the results depend on the processing

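Of the 79 genes, 8 were lower in every alternative they were tested in (Atp5b, Atp5j, Cox7a1, Cox8b, Ndufaf7, Ndufc1, Ndufv1 and Uqcrfs1) and 2 were higher in every one (Cox5a and Uqcrh); Atp5b, Cox8b and Uqcrh were tested in 11 of the 12 gene-level alternatives, since 1 leaves their probes unnamed. No called gene changed sign. With the transgenic RNA in Cy5 alone, 13 genes were lower and 19 higher; in Cy3 alone 17 were lower and 4 higher; the cause was not tested. All genes shifted likewise (16.1% lower and 16.2% higher in Cy5, 14.3% and 7.9% in Cy3), and their shares called also fell without any 1 mouse. Leaving out arrays or a mouse gave 13 to 21 lower genes (13 without mouse 2 or mouse 3, 21 without the wide array of mouse 4) and 4 to 13 higher genes (4 without mouse 1 or mouse 2, 13 without that array); fits without a mouse have fewer samples. In the fit without the wide array, mouse 4 stands by its Cy5 array alone. The other settings kept both counts within 1.5 times: 27 lower and 8 higher with the mouse as a random block (Ndufb7 and Sdhc lost), 21 and 9 with arrays centred on their medians, 20 and 7 with the placeholders kept (Ndufa6, Cox6b1 and Sdhc lost), 18 and 9 without the weakly named ranges, 21 and 7 with the median over probes (Atp5h and Sdhc lost), and 27 lower and 11 higher probes with each probe alone. Between mice, 0 genes were called with limma with and without a dye term and per probe (9 had an unadjusted p under 0.05 with the term), and by dye 0 with and without centring (32 had an unadjusted p under 0.05 without centring). The isoform differences kept their sign in all alternatives run. Without intensities, signal over background could not be used to weigh probes or arrays. No paired analysis was possible because the only control is 1 pool, which carries no replicate number.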
